A study of Mus musculus with 6 samples.

Results

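The genes described here are Myc and the ribosome biogenesis factors of a fixed list of 35 symbols. All 35 were found by symbol among the 14750 genes of the deposited table, and all 35 passed the filter on low values. MYC is a transcription factor that dimerises with MAX on E-box DNA (CACGTG) and is known for driving genes of growth, nucleotide supply and ribosome production. Ribosome production starts in the nucleolus, where RNA polymerase I transcribes the precursor of the ribosomal RNAs. Small nucleolar ribonucleoproteins (snoRNPs) then modify the precursor, and separate sets of assembly factors fold, cleave and package it into the small and the large subunit. In CD8+ T cells, the lineage of cytotoxic T cells, antigen receptor signalling is known to induce MYC and to enlarge the nucleolus before division.

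Total RNA of CD8+ T cells isolated from mouse spleen was sequenced in 6 libraries after hematopoietic stem cell transplantation (HSCT), the replacement of the blood-forming cells of a host by those of a donor. The labels gave 3 libraries as allo-HSCT, with C57BL/6 donors and Balb/c hosts, and 3 as syn-HSCT, with Balb/c donors and Balb/c hosts; they are called allo-labelled and syn-labelled for short. The strain field read Balb/c for all 6, and no other genotype or agent was named. By the labels, donor strain changed together with transplant type. Differences between the groups therefore cannot be assigned to one or the other. The sources used here do not give conditioning, cell dose, time after transplantation, age or sex, nor whether each library is from its own animal. The p-values below thus weigh differences against the scatter of these 6 libraries alone, and that scatter may be technical.

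Several features of the whole series bear on every value below. The sample titles carry the letter S for the allo-HSCT-labelled libraries and A for the syn-HSCT-labelled ones, and strain genes ran against the labels. H2-Ea-ps, an MHC class II gene that BALB/c mice transcribe and C57BL/6 mice do not, was at 1909 to 2006 FPKM in the allo-HSCT-labelled libraries, against 3.66 to 6.67 FPKM in the syn-HSCT-labelled ones. Ly6a, known for stronger expression on C57BL/6 than on BALB/c T cells, was at 26.9 to 30.3 FPKM in the allo-HSCT-labelled libraries and at 332 FPKM in each of the syn-HSCT-labelled libraries. H2-Ab1, another MHC class II gene, was at 1044 to 1116 FPKM in the allo-HSCT-labelled libraries and still at 43.3 to 46.5 FPKM in the syn-HSCT-labelled ones. Each direction below is therefore that of the labels alone, and it would be reversed if the labels of the groups were exchanged. Which transplant each library came from was not tested. FPKM are fragments scaled to the length of the gene and to the total of the library, and the totals recovered from them were 15154000 to 16351000 fragments in the allo-HSCT-labelled libraries and 15310000 to 18715000 in the syn-HSCT-labelled ones. The CD8 marker Cd8b1 was high in all 6 libraries, at 476 to 514 FPKM in the allo-HSCT-labelled ones and 472 to 490 FPKM in the syn-HSCT-labelled ones.

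Markers of other cells differed between the groups, and so did proliferation markers. The 9 dendritic cell markers summed to 3780 to 4025 FPKM in the allo-HSCT-labelled libraries and 210 to 230 FPKM in the syn-HSCT-labelled ones; 8 were tested and all 8 were called higher, while Cd209a was listed at 0 in every syn-HSCT-labelled library. The 8 neutrophil markers summed to 1917 to 2032 FPKM in allo-labelled against 91.8 to 101 FPKM in syn-labelled libraries (7 called higher), and the 8 macrophage and monocyte markers to 332 to 333 FPKM in allo-labelled against 39.0 to 40.4 FPKM in syn-labelled libraries (8 called higher). The 8 markers of CD8 T cells summed to 1707 to 1806 FPKM in the allo-HSCT-labelled libraries and 1887 to 1908 FPKM in the syn-HSCT-labelled ones, with 2 called higher and 5 lower. Cd8b1 was the only 1 not called. Trac, at 278 FPKM in allo-labelled against 447 FPKM in syn-labelled libraries, and Cd3g, at 73.7 against 124 FPKM, were among the 5 lower. Cd8a was among the 2 higher, at 351 FPKM in allo-labelled against 240 FPKM in syn-labelled libraries. All 8 proliferation markers were called lower, with sums of 491 to 499 FPKM in allo-labelled against 928 to 943 FPKM in syn-labelled libraries. What part these marker differences have in the results below was not tested. In bulk RNA, fewer cells of a type and less RNA per cell cannot be told apart.

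**Figure D1:**
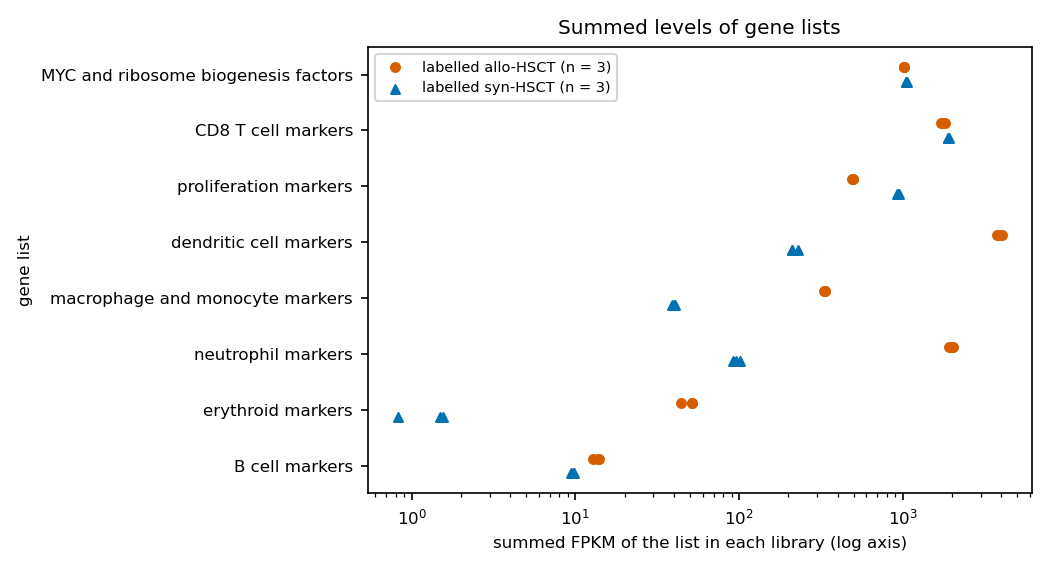
Summed FPKM of gene lists in each library (x axis, log scale), by list (y axis), with orange circles for the 3 allo-HSCT-labelled libraries and blue triangles for the 3 labelled syn-HSCT. The sums of the 35 genes described here lay close together, at 1017 to 1019 FPKM in allo-labelled against 1041 to 1054 FPKM in syn-labelled libraries, while dendritic cell and neutrophil marker sums lay far apart.

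As a set, Myc and the ribosome biogenesis factors did not shift in one direction. Myc itself was higher in the allo-HSCT-labelled libraries, 11 of the other members were also called higher, 8 were called lower and 15 were not called. Among all 12404 genes tested, limma called 67.6%, with 34.7% higher and 33.0% lower. The members' shares were 57.1% called, 34.3% higher and 22.9% lower, so their share called higher was near the background and their share called lower was below it. The groups did not overlap at 23 of the 35 members (65.7%), against 72.3% of all genes tested. The median log2 difference of the members was 0.05, and that of all genes tested was 0.01. The median size of the difference, whatever its sign, was 0.17 for members and 0.33 for all genes. Only Myc, Polr1a and Gnl3 differed by more than 1.5-fold, where 36.5% of all genes tested did. Differences are on the log2(FPKM + 1) scale, labelled allo-HSCT minus labelled syn-HSCT, and calls are at an adjusted p under 0.05 by limma.

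Replicates lay close together at these genes: the coefficient of variation of a member within a group had a median of 4.14% in the allo-HSCT-labelled libraries and 3.97% in the syn-HSCT-labelled ones, with maxima of 12.7% (Nop16) and 13.0% (Wdr12). The 95% intervals of the 15 members not called lay within -0.27 and 0.38 on the log2 scale. The summed FPKM of all 35 was 1.03-fold lower in the allo-HSCT-labelled libraries, at 1019, 1017 and 1018 FPKM in allo-labelled against 1054, 1047 and 1041 FPKM in syn-labelled libraries. That sum rests on its most abundant members: without Npm1 and Ncl, left out after their values were seen, it was 739, 732 and 733 FPKM in the allo-HSCT-labelled libraries and 713, 696 and 691 FPKM in the syn-HSCT-labelled ones, and so ran the other way.

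**Figure D2:**
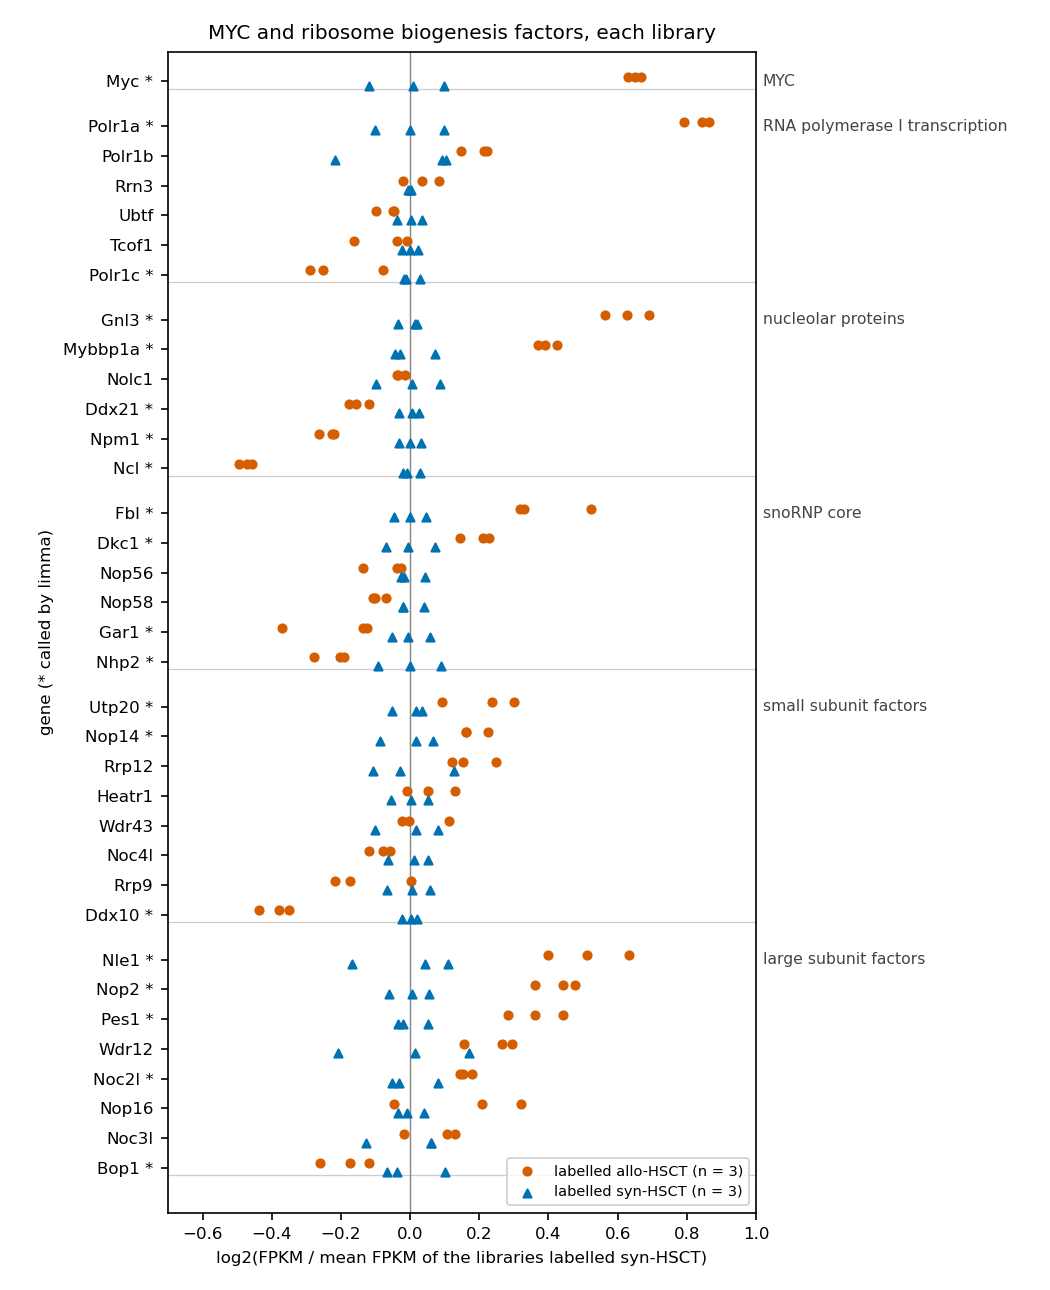
Each of the 35 genes in each library, as log2 of FPKM over the gene's mean in the syn-HSCT-labelled libraries (x axis), grouped by role (y axis), with orange circles for labelled allo-HSCT, blue triangles for labelled syn-HSCT and asterisks for genes called by limma. Every role with more than 1 gene held members on both sides of 0, from Polr1a, 1.78-fold higher, to Ncl, 1.39-fold lower.

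Myc, on chromosome 15 from 61985391 to 61990374 (plus strand, GENCODE vM21 on GRCm38), had 30.9, 31.3 and 30.5 FPKM in the allo-HSCT-labelled libraries, against 19.8, 21.1 and 18.2 FPKM in the syn-HSCT-labelled ones. All 3 allo-HSCT-labelled libraries lay above all 3 labelled syn-HSCT. The ratio of means was 1.57, and the log2 difference was 0.63 ± 0.05 (SE; limma adjusted p = 5.15e-05, n = 3 each). Between 824 and 1389 fragments per library stood behind these values. The call held in all 15 alternative fits, with adjusted p from 3.54e-09 to 0.000433 by limma. Max, which encodes MYC's dimerisation partner, was also higher, at 38.2 FPKM in allo-labelled against 31.2 FPKM in syn-labelled libraries (log2 difference 0.28, limma adjusted p = 0.000275).

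Of the 20 genes of the wider MYC network tested, Max included, 9 were called higher (45%), 6 lower (30%) and 5 not called (Mycn and Mlxipl were not analysed here). Among all genes tested, 34.7% were called higher and 33.0% lower. Mycl, which encodes a MYC paralog that dendritic cells express, had 32.6, 33.2 and 31.1 FPKM in the allo-HSCT-labelled libraries, against 1.44, 1.34 and 1.47 FPKM in the syn-HSCT-labelled ones, 22.8-fold higher (limma adjusted p = 1.29e-08). It moved with the dendritic cell markers Xcr1 (60.4 FPKM in allo-labelled against 3.89 FPKM in syn-labelled libraries) and Clec9a (65.3 FPKM in allo-labelled against 2.28 FPKM in syn-labelled libraries), and the part of dendritic cell RNA in its level was not tested. The MXD proteins compete with MYC for MAX, and their genes split. Mxd1 was 1.78-fold higher and Mxd4 1.58-fold higher, while Mxd3 was at 9.46 FPKM ± 0.39 in the allo-HSCT-labelled libraries and 18.7 FPKM ± 1.35 in the syn-HSCT-labelled ones (SD, n = 3 each). About 4.4% of Mxd3's exon length overlaps the opposite-strand gene Prelid1, at 77.2 FPKM in allo-labelled against 140 FPKM in syn-labelled libraries. Kat5, an acetyltransferase gene of MYC's coactivator complexes, was 1.48-fold lower, though 12.1% of its exon length overlaps the opposite-strand gene Rnaseh2c, which was also lower. Bin1, which encodes a MYC-interacting adaptor, was 1.19-fold lower.

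Genes commonly listed as MYC targets outside ribosome assembly were mostly lower, opposite in direction to Myc. Of 35 tested, 23 were called lower (65.7%), 8 higher (22.9%) and 4 not called, with a median log2 difference of -0.18. Among all genes tested, 33.0% were called lower and 34.7% higher. Nme2 and Tert did not pass the filter on low values and were not tested. Of Nme2's exon length, 48.9% overlaps the same-strand gene Gm20390, so its low value is uncertain. Odc1, which encodes ornithine decarboxylase of polyamine synthesis, had 24.4, 26.2 and 25.9 FPKM in the allo-HSCT-labelled libraries, against 47.9, 46.7 and 48.7 FPKM in the syn-HSCT-labelled ones (limma adjusted p = 1.44e-06). Slc1a5, a glutamine transporter gene, was 1.62-fold lower, and Ran, a GTPase gene of nuclear transport, 1.59-fold lower. The purine and pyrimidine synthesis genes Cad, Ppat, Gart, Paics, Pfas, Impdh2 and Ctps, grouped after their values were seen, were among the 23 called lower. Among those called higher were Ccnd2, which encodes cyclin D2, at 31.9 FPKM ± 1.05 in allo-labelled against 14.4 FPKM ± 0.79 in syn-labelled libraries (SD, n = 3 each), and Eif4ebp1, a translation inhibitor gene, 1.74-fold higher. Apex1, a DNA repair endonuclease gene, was 1.44-fold higher, but 61.7% of its exon length overlaps the opposite-strand gene Pip4p1, so its value is uncertain. Proliferation markers such as Mki67, at 88.1 FPKM in the allo-HSCT-labelled libraries and 206 FPKM in the syn-HSCT-labelled ones, were lower beside these targets.

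**Figure D3:**
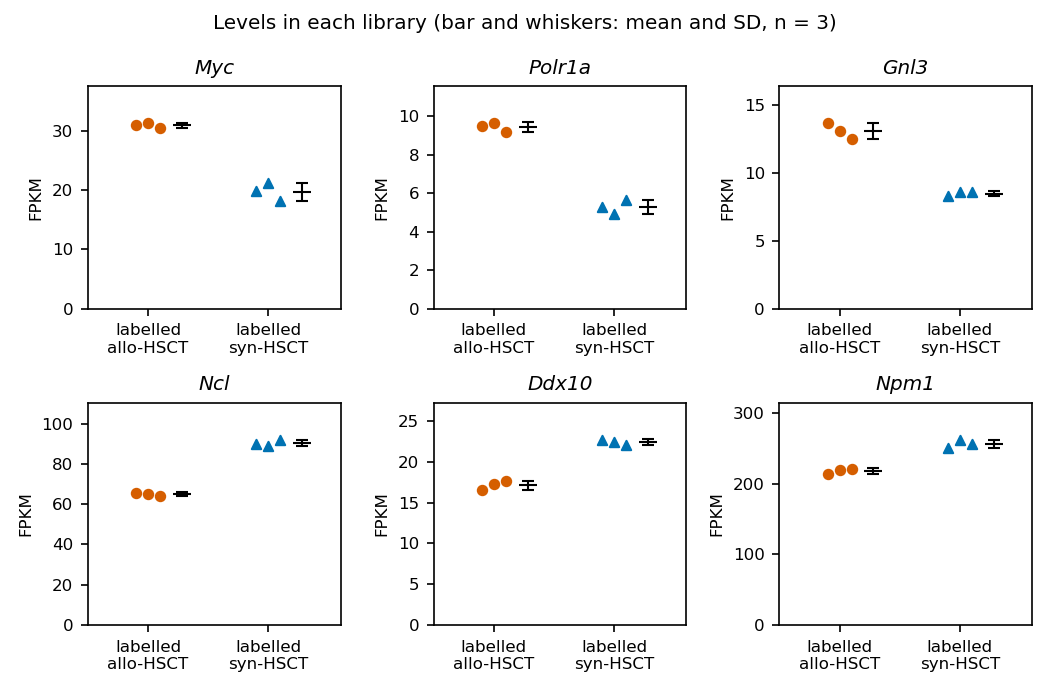
FPKM of 6 genes in each library (y axis from 0), with the allo-HSCT-labelled libraries on the left and the syn-HSCT-labelled ones on the right of each panel; bars and whiskers are means and SDs of 3 libraries. Myc, Polr1a and Gnl3 lay higher in all 3 allo-HSCT-labelled libraries, and Ncl, Ddx10 and Npm1 lower in all 3.

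The E-box CACGTG, read the same on both strands, was searched in windows from 250 bases before to 50 bases after the gene start (RefSeq, GRCm38.p6). Of the 35 members, 29 had a window, and Myc, Npm1, Fbl, Rrp12, Bop1 and Tcof1 had none to search. The motif was in 7 of 29 (24.1%), against 8.09% of all 27025 genes with a window and 11.8% of the 8558 tested genes with a window. It was present in 5 of 10 members called higher, 0 of 6 called lower and 2 of 13 not called (Wdr43 and Rrn3). Over all tested genes with a window, it was present in 13.2% of those called higher, 10.1% of those called lower and 11.9% of those not called. Windows are given for the members called in either direction that hold the motif, 5′ to 3′ on the strand of the gene, with the motif in capitals. There were 5 such members, and all 5 were higher in the allo-HSCT-labelled libraries. They are Nle1 (chr11:82908346-82908645, minus strand), Nop2 (chr6:125131633-125131932, plus strand), Mybbp1a (chr11:72441077-72441376, plus strand), Pes1 (chr11:3963725-3964024, plus strand) and Utp20 (chr10:88826765-88827064, minus strand).
Nle1: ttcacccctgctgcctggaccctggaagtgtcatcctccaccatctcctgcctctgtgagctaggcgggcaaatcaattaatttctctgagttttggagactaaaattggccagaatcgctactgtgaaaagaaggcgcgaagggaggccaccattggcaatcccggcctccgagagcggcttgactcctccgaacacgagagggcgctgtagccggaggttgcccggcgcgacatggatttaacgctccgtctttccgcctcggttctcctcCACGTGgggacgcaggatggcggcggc
Nop2: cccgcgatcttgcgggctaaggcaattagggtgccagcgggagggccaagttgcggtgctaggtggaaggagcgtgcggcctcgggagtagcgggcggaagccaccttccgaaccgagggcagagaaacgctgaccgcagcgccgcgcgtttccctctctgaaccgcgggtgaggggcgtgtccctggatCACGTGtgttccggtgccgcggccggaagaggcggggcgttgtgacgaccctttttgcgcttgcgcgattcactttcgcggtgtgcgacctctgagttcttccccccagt
Mybbp1a: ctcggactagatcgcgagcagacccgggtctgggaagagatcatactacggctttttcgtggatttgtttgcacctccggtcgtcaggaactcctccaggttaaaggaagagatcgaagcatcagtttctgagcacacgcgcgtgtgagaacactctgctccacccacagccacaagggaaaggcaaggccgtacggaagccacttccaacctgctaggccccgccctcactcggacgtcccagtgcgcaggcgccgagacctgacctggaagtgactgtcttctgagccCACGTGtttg
Pes1: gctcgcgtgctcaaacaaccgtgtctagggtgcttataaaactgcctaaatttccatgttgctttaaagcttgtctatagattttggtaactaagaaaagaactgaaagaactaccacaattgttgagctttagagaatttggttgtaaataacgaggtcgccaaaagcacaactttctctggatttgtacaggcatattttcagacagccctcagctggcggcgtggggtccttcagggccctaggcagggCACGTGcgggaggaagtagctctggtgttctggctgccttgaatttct
Utp20: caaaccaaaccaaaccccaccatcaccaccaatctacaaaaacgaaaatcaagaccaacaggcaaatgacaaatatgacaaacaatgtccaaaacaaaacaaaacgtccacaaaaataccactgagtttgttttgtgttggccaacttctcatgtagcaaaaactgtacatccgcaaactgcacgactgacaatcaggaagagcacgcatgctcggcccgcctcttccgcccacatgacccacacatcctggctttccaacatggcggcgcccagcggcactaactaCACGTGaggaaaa
Counted from the gene start, the first base of the motif lay 60 bases upstream in Nop2 and 2 to 40 bases downstream in the others, at 2 in Pes1, 23 in Nle1, 37 in Utp20 and 40 in Mybbp1a. Members with the motif had a median log2 difference of 0.35 (0.03 to 0.44, n = 7), and members without it -0.04 (-0.47 to 0.73, n = 22). Over all tested genes the gap was smaller, with medians of 0.05 with the motif (n = 1008) and -0.003 without it (n = 7550). Polr1a and Gnl3, the members with the largest rise among those searched, had no CACGTG in this window. A match is a description of the letters and not a measured binding site.

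Among the genes of RNA polymerase I transcription, Polr1a was higher, Polr1c was lower and the other 4 were not called. Of these 6 members 33.3% were called, against 67.6% of all genes tested. Polr1a, which encodes the catalytic largest subunit (chromosome 6, 71909053 to 71984935, plus strand), had 9.50, 9.64 and 9.16 FPKM in the allo-HSCT-labelled libraries, against 5.29, 4.93 and 5.66 FPKM in the syn-HSCT-labelled ones. It was 1.78-fold higher, the largest ratio among the 35, with a log2 difference of 0.73 ± 0.06 (SE; limma adjusted p = 3.40e-05, n = 3 each). Polr1b, for the second-largest subunit, was at 5.84 FPKM ± 0.17 in allo-labelled against 5.10 FPKM ± 0.62 in syn-labelled libraries (SD, n = 3 each) and was not called by limma (adjusted p = 0.111), although its values did not overlap; with recovered fragments it was called higher (adjusted p = 0.0474 by limma's voom). Polr1c, whose product is shared with RNA polymerase III, was 1.15-fold lower, at 19.8, 17.1 and 17.6 FPKM in the allo-HSCT-labelled libraries, against 20.8, 21.3 and 20.7 FPKM in the syn-HSCT-labelled ones (limma adjusted p = 0.018). Its call was lost without allo-HSCT replicate 2 or 3 (adjusted p = 0.0552 and 0.0574 by limma) and without syn-HSCT replicate 2 (0.0562).

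The 3 genes of initiation factors and cofactors were not called. Ubtf, which encodes the factor that binds ribosomal DNA promoters, was at 41.6 FPKM ± 0.84 in the allo-HSCT-labelled libraries and 43.5 FPKM ± 1.13 in the syn-HSCT-labelled ones (SD, n = 3 each), with a 95% interval of -0.13 to 0.01 on the log2 scale. Its groups did not overlap, and it was called lower without antigen receptor, haemoglobin and mitochondrial genes (adjusted p = 0.0466 by limma) and with recovered fragments (0.0271 by limma's voom), while quantile normalization turned its sign. Rrn3, whose product joins the polymerase to that promoter, was at 11.9 FPKM in allo-labelled against 11.7 FPKM in syn-labelled libraries, with overlapping groups. Tcof1, which encodes the nucleolar cofactor treacle, was at 34.6 FPKM in allo-labelled against 36.3 FPKM in syn-labelled libraries, also overlapping. Of the 16 other genes of the apparatus, 4 were called higher (25%), 6 lower (37.5%) and 6 not called. The shares over all genes tested were 34.7% higher and 33.0% lower. Cd3eap, for a polymerase I subunit, was 2.42-fold higher (8.56 FPKM ± 0.56 in allo-labelled against 3.54 FPKM ± 0.71 in syn-labelled libraries, SD, n = 3 each), and Twistnb and Znrd1, for further subunits, were 1.24-fold and 1.23-fold higher. Polr1d, for a subunit that polymerases I and III share, was 1.55-fold lower, Polr2k, for a subunit common to all nuclear polymerases, 1.36-fold lower, and Taf1b, for a subunit of the promoter selectivity factor, 1.95-fold lower.

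The abundant nucleolar proteins split as well, with the most abundant 3 lower and 2 of lower abundance higher. Of the 6 members in this role 83.3% were called, against 67.6% of all genes tested. Ncl, which encodes nucleolin (chromosome 1, 86344719 to 86359400, minus strand), had 65.7, 65.2 and 64.1 FPKM in the allo-HSCT-labelled libraries, against 89.7, 89.0 and 92.0 FPKM in the syn-HSCT-labelled ones. The ratio was 1.39-fold lower, the largest fall among the 35 (log2 difference -0.47 ± 0.02, SE; limma adjusted p = 3.61e-06, n = 3 each). Npm1, which encodes nucleophosmin, a histone chaperone that holds the outer layer of the nucleolus together, had 214, 220 and 221 FPKM in allo-labelled against 251, 263 and 257 FPKM in syn-labelled libraries and was 1.18-fold lower (limma adjusted p = 0.000147). Npm1 is uncertain because 4 processed pseudogenes in the table share stretches of at least 200 bases at 95% identity or more with its transcript. The copies together took 64.3 ± 5.30 CPM (recovered fragments scaled to a common library total) in the allo-HSCT-labelled libraries and 54.8 ± 2.74 in the syn-HSCT-labelled ones (SD, n = 3 each), the other way from Npm1. This rests on the copy Gm14681, at 46.9 CPM in allo-labelled against 34.9 CPM in syn-labelled libraries, while Gm6477 (6.43 CPM in allo-labelled against 7.05 CPM in syn-labelled libraries) and Gm9118 (10.1 CPM in allo-labelled against 12.2 CPM in syn-labelled libraries) had lower means, with overlapping groups. Npm1 and its copies added together were at 640, 650 and 648 CPM in the allo-HSCT-labelled libraries, against 727, 753 and 740 CPM in the syn-HSCT-labelled ones, a ratio of 0.873 with no overlap, where Npm1 alone gave 0.849.

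Ddx21, which encodes an RNA helicase of nucleolus and nucleoplasm, was at 56.0 FPKM ± 1.15 in the allo-HSCT-labelled libraries and 62.1 FPKM ± 1.23 in the syn-HSCT-labelled ones (SD, n = 3 each; limma adjusted p = 0.00221), and this call was lost after quantile normalization (adjusted p = 0.253 by limma). Gnl3, which encodes the nucleolar GTPase nucleostemin, had 13.7, 13.1 and 12.5 FPKM in allo-labelled against 8.25, 8.55 and 8.58 FPKM in syn-labelled libraries and was 1.55-fold higher (limma adjusted p = 3.26e-05). Mybbp1a, which encodes a MYB-binding nucleolar protein, had 37.8, 39.3 and 38.4 FPKM in allo-labelled against 30.8, 28.7 and 28.4 FPKM in syn-labelled libraries, 1.31-fold higher (limma adjusted p = 0.000104). In both genes every allo-HSCT-labelled library lay above every syn-HSCT-labelled library. Nolc1, for a chaperone of snoRNPs, was at 23.2 FPKM in allo-labelled against 23.7 FPKM in syn-labelled libraries, with overlapping groups.

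Each snoRNP type had a catalytic subunit gene that was higher beside partner genes that were lower or not called. Fbl encodes fibrillarin, the methyltransferase of the box C/D type, and had 45.1, 39.5 and 39.1 FPKM in the allo-HSCT-labelled libraries, against 30.4, 31.4 and 32.4 FPKM in the syn-HSCT-labelled ones. It was 1.31-fold higher (limma adjusted p = 0.00104), and 83.3% of its transcript is shared at 95% identity or more with 2 other genes, so some of its reads may be theirs. The scaffold genes Nop56, at 37.3 FPKM in allo-labelled against 39.1 FPKM in syn-labelled libraries, and Nop58, at 9.68 FPKM in allo-labelled against 10.3 FPKM in syn-labelled libraries, were not called (limma adjusted p = 0.172 and 0.0889). Nop58 was called lower in 3 alternative fits. Dkc1 encodes dyskerin, the pseudouridine synthase of the box H/ACA type, and had 23.1, 23.4 and 22.1 FPKM in allo-labelled against 19.1, 21.0 and 19.9 FPKM in syn-labelled libraries, 1.14-fold higher (limma adjusted p = 0.00774). Its partners were lower: Nhp2 had 46.6, 44.2 and 47.0 FPKM in allo-labelled against 57.1, 53.6 and 50.3 FPKM in syn-labelled libraries (limma adjusted p = 0.00687), and Gar1 had 19.5, 23.1 and 22.9 FPKM in allo-labelled against 26.2, 25.1 and 24.3 FPKM in syn-labelled libraries (limma adjusted p = 0.0358). Gar1 lost its call without syn-HSCT replicate 1, 2 or 3 (adjusted p = 0.102, 0.0775 and 0.0503 by limma), with the replicate number as a block (0.0685) and after quantile normalization (0.0591). Among 16 further genes of snoRNP assembly and ribosomal RNA modification, 6 were called lower (37.5%), 1 higher (Znhit6, a box C/D assembly factor gene, 1.33-fold) and 9 not called. The shares over all genes tested were 33.0% lower and 34.7% higher. Rpap3, of the chaperone complex that assembles snoRNPs, was 1.65-fold lower, Snu13, a box C/D core gene, 1.30-fold lower, and Coil, which encodes the Cajal body protein coilin, 1.30-fold lower.

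Ratios of partner genes within a library do not depend on how the libraries are scaled. In each pair the gene with the larger log2 difference was put on top. That all mean ratios were higher in the allo-HSCT-labelled libraries thus follows from this choice and is not a result. Across 14 pairs of partners in 6 complexes or pairings, 10 ratios (71.4%) did not overlap between the groups, a share near the 72.3% of single genes tested that did not overlap, and no share was computed for other gene pairs. Polr1a over Polr1c was 0.479, 0.563 and 0.522 in the allo-HSCT-labelled libraries, against 0.255, 0.231 and 0.274 in the syn-HSCT-labelled ones. Fbl over Nop56 was 1.11 ± 0.08 in allo-labelled against 0.804 ± 0.045 in syn-labelled libraries, and Dkc1 over Nhp2 was 0.499 ± 0.030 in allo-labelled against 0.374 ± 0.035 in syn-labelled libraries (SD, n = 3 each). Pairs that overlapped were Nop56 over Nop58, Gar1 over Nhp2, Pes1 over Wdr12 and Noc2l over Noc3l, whose mean ratios differed by 1.01-fold to 1.08-fold. The pairs share libraries and genes, the complexes were chosen with the values known, and no test was made of the ratios.

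**Figure D4:**
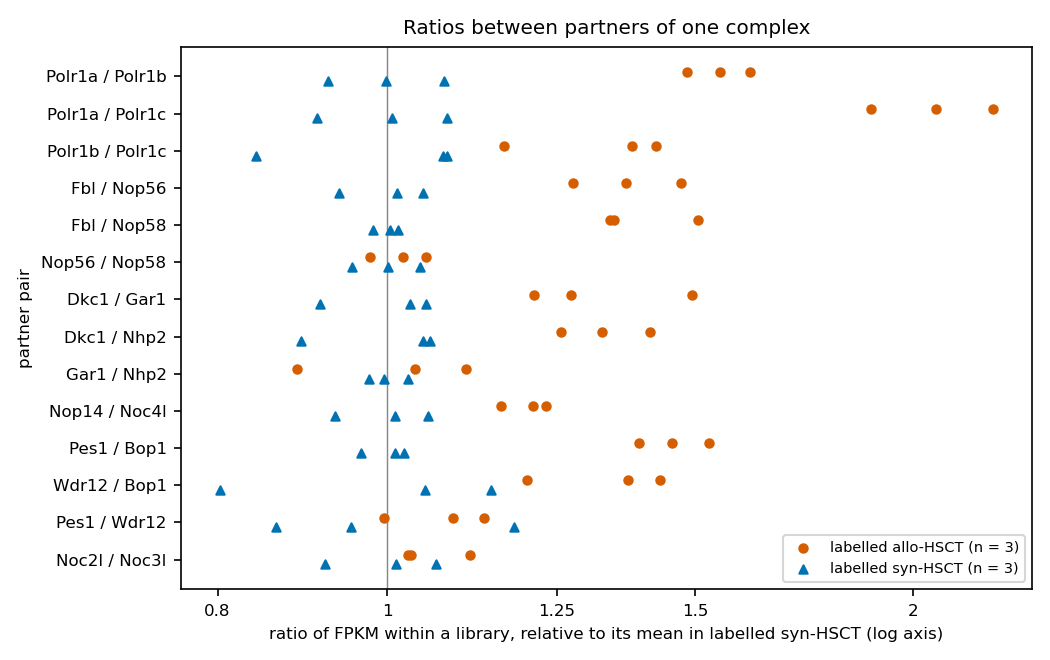
Ratio of the FPKM of 2 partner genes within each library, relative to its mean in the syn-HSCT-labelled libraries (x axis, log scale), for 14 pairs (y axis), with orange circles for labelled allo-HSCT and blue triangles for labelled syn-HSCT. The gene with the larger log2 difference is on top in each pair, so the shared direction follows from that choice. The groups did not overlap at 10 pairs, and the widest gap was that of Polr1a over Polr1c, 2.06-fold.

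Of the 8 small subunit factors, 2 were called higher (25%), 1 lower (12.5%) and 5 not called. Among all genes tested, 34.7% were called higher and 33.0% lower. Ddx10, which encodes a helicase whose yeast counterpart releases a small nucleolar RNA from the precursor, had 16.6, 17.2 and 17.6 FPKM in the allo-HSCT-labelled libraries, against 22.7, 22.4 and 22.0 FPKM in the syn-HSCT-labelled ones. It was 1.31-fold lower with no overlap (log2 difference -0.37 ± 0.03, SE; limma adjusted p = 7.35e-05, n = 3 each). Nop14, of the early small subunit particle, was 1.13-fold higher, at 15.4, 16.1 and 15.4 FPKM in allo-labelled against 14.5, 13.0 and 14.0 FPKM in syn-labelled libraries (limma adjusted p = 0.0148, and 0.0515 without allo-HSCT replicate 2). Its binding partner Noc4l was at 14.8 FPKM in allo-labelled against 15.7 FPKM in syn-labelled libraries and was not called. Utp20, a large scaffold gene, was 1.16-fold higher, at 6.48, 6.21 and 5.61 FPKM in allo-labelled against 5.33, 5.08 and 5.39 FPKM in syn-labelled libraries (limma adjusted p = 0.0391). That call was the least stable of the 20: it was lost in 8 of 15 alternative fits, with adjusted p of 0.114 and 0.101 by limma without allo-HSCT replicate 1 or 2 and of 0.072, 0.109 and 0.0673 without syn-HSCT replicate 1, 2 or 3, and with the replicate block it was 0.073.

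Rrp9, Heatr1, Wdr43 and Rrp12 were not called and their groups overlapped. Heatr1, which encodes a protein needed for both transcription and processing of the precursor, was at 12.6 FPKM in allo-labelled against 12.1 FPKM in syn-labelled libraries, and Wdr43, of the same early particle, at 28.2 FPKM in allo-labelled against 27.6 FPKM in syn-labelled libraries. Rrp9, a protein gene of the snoRNP that guides the first cleavages, was at 8.91 FPKM in allo-labelled against 9.72 FPKM in syn-labelled libraries, and it was called lower without allo-HSCT replicate 3 (limma adjusted p = 0.0311). Rrp12, an export factor gene, was at 9.30 FPKM in allo-labelled against 8.24 FPKM in syn-labelled libraries, and it was called higher without syn-HSCT replicate 1 (limma adjusted p = 0.0188). In the wider list of small subunit assembly, of 51 genes tested, 20 were called lower (39.2%), 7 higher (13.7%) and 24 not called, with a median log2 difference of -0.07. The shares over all genes tested were 33.0% lower and 34.7% higher. Nat10, which encodes an RNA acetyltransferase, was 1.45-fold lower, Ddx52, a helicase gene, 1.42-fold lower, and Nol7 1.43-fold lower, with 16.5% of Nol7's exon length shared with the opposite-strand gene Ranbp9. Wdr46 reached 22.2 FPKM ± 1.48 in allo-labelled against 13.0 FPKM ± 0.91 in syn-labelled libraries (SD, n = 3 each), 1.70-fold higher, and Nob1, which encodes the nuclease that makes the mature end of the small subunit RNA, 1.24-fold higher.

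Of the 8 large subunit factors, 4 were called higher (Nle1, Nop2, Pes1 and Noc2l), 1 lower (Bop1) and 3 not called. These shares were 50% higher and 12.5% lower, against 34.7% and 33.0% over all genes tested. Nle1, whose yeast counterpart is removed from the maturing particle by the ATPase that mouse Mdn1 resembles, had 7.21, 6.13 and 6.63 FPKM in the allo-HSCT-labelled libraries, against 4.14, 5.01 and 4.79 FPKM in the syn-HSCT-labelled ones. It holds the E-box in its window and was 1.43-fold higher with no overlap (limma adjusted p = 0.00287), on 205 to 363 fragments per library, the lowest of the members counted. Nop2, which encodes a methyltransferase of the large subunit RNA, had 26.3, 24.2 and 25.6 FPKM in allo-labelled against 18.1, 18.9 and 19.6 FPKM in syn-labelled libraries and was 1.34-fold higher (limma adjusted p = 0.00017). Noc2l, which also encodes an inhibitor of histone acetylation, averaged 46.1 FPKM ± 0.60 in allo-labelled against 41.3 FPKM ± 2.06 in syn-labelled libraries (SD, n = 3 each), 1.12-fold higher (limma adjusted p = 0.00953). About 20.9% of Noc2l's exon length overlaps the opposite-strand gene Samd11, not analysed here. Its partner Noc3l was at 8.10 FPKM in allo-labelled against 7.69 FPKM in syn-labelled libraries, and Nop16, a nucleolar factor gene, at 13.5 FPKM in allo-labelled against 12.0 FPKM in syn-labelled libraries. Neither was called, but Nop16 was called higher without allo-HSCT replicate 2 (limma adjusted p = 0.00768).

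The PeBoW complex, made of PES1, BOP1 and WDR12 and needed for maturation of the large subunit RNA, had members on both sides. Pes1 had 36.2, 32.4 and 34.2 FPKM in the allo-HSCT-labelled libraries, against 27.7, 26.1 and 26.3 FPKM in the syn-HSCT-labelled ones, 1.29-fold higher (limma adjusted p = 0.000494), and its window is among those with the E-box. Bop1 had 23.1, 21.7 and 24.0 FPKM in allo-labelled against 27.9, 24.9 and 25.4 FPKM in syn-labelled libraries, 1.14-fold lower (limma adjusted p = 0.0259). Pes1 over Bop1 was thus 1.57, 1.49 and 1.43 in the allo-HSCT-labelled libraries, against 0.991, 1.05 and 1.04 in the syn-HSCT-labelled ones. Bop1 lost its call without allo-HSCT replicate 1 or 2 (adjusted p = 0.0552 and 0.0792 by limma) and without syn-HSCT replicate 1 (0.0613), and 60.5% of the Pes1 transcript is shared with 2 other genes at 95% identity or more. Wdr12 was at 2.73 FPKM ± 0.14 in allo-labelled against 2.31 FPKM ± 0.30 in syn-labelled libraries (SD, n = 3 each) and was not called, although it was called higher with recovered fragments (adjusted p = 0.0296 by limma's voom). In the wider list of large subunit assembly, 14 of 59 genes tested were called higher (23.7%), 14 lower (23.7%) and 31 not called. The shares over all genes tested were 34.7% higher and 33.0% lower. Sdad1, whose yeast counterpart acts in export of the large subunit, had 33.4, 35.1 and 36.1 FPKM in allo-labelled against 8.16, 9.09 and 8.55 FPKM in syn-labelled libraries, 4.05-fold higher (limma adjusted p = 1.95e-07). Mdn1 was 2.38-fold higher and Ppan 1.69-fold higher, while Lyar, a nucleolar regulator gene, was at 14.6 FPKM in allo-labelled against 22.0 FPKM in syn-labelled libraries, Npm3, a nucleophosmin relative, 1.42-fold lower and Bccip 1.26-fold lower. About 10.0% of Bccip's exon length overlaps the opposite-strand gene Dhx32, at 4.73 FPKM in allo-labelled against 6.62 FPKM in syn-labelled libraries.

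Of the nucleases that trim ribosomal RNA and its spacers, 11 of 23 tested were called lower (47.8%), 1 higher (Exosc5, an exosome subunit gene, 1.39-fold) and 11 not called. Of the 8 protein subunit genes of RNase P and RNase MRP tested, 3 were called lower (Pop4, Pop1 and Rpp30) and 5 were not called. This subset was not among the planned lists. Its share called lower was near the 33.0% of all genes tested. Pop4 had 4.11, 3.48 and 4.06 FPKM in the allo-HSCT-labelled libraries, against 14.0, 13.6 and 14.3 FPKM in the syn-HSCT-labelled ones, 3.60-fold lower (limma adjusted p = 1.28e-06). Pop1 was 2.01-fold lower and Rpp30 1.58-fold lower. Over the 5 wider lists of ribosome assembly together, 57 of 165 genes tested were called lower (34.5%), 27 higher (16.4%) and 81 not called, with a median log2 difference of -0.07. Over all genes tested, 33.0% were called lower and 34.7% higher, so the share called lower was near the background and the share called higher was below it.

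**Figure D5:**
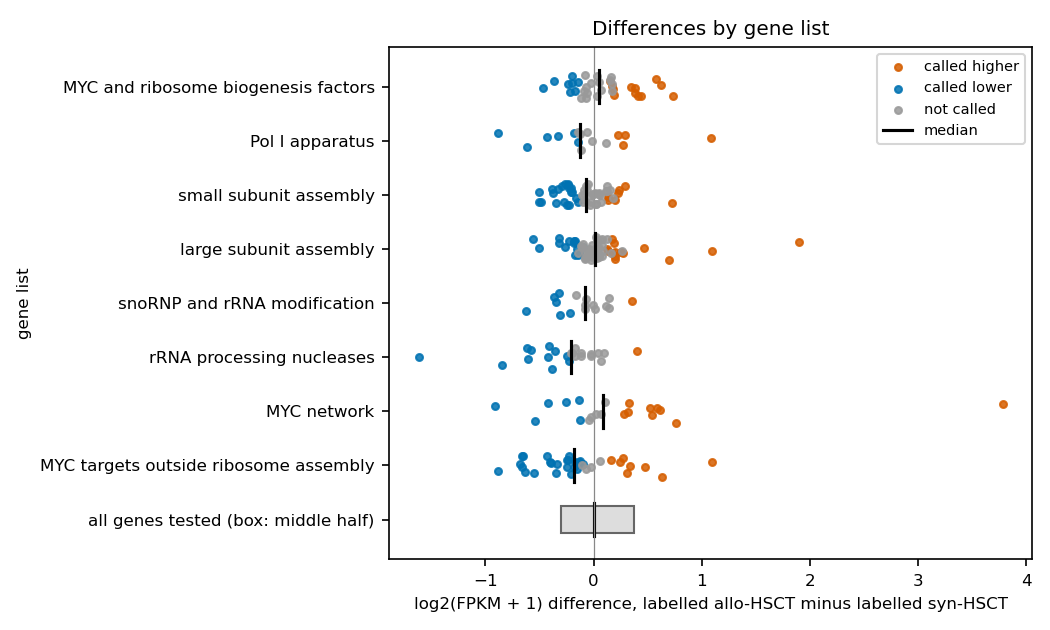
Log2(FPKM + 1) differences, labelled allo-HSCT minus labelled syn-HSCT (x axis), of single genes by list (y axis); orange points were called higher, blue lower and grey not called by limma, black bars are medians, and the grey box spans the interquartile range of all genes tested. Members spread from -0.47 to 0.73, and the nuclease and MYC target lists lay mostly left of 0, with medians of -0.21 and -0.18.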

How the data were processed

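The authors deposited 1 table of FPKM values for 14750 genes in 6 libraries. The unit was read from the deposited values: multiplied by the length of a gene's exon union in GENCODE vM21 (GRCm38), they were whole multiples of a library constant within 0.1 fragments for 94.3% to 94.6% of values above 0. Whether pairs or single reads were counted is unknown, so the unit may be RPKM. Per the labels' protocols, the RNA was freed of ribosomal RNA and went into Illumina libraries, with no word on strand. The submitters' processing notes list limma. Aligner, counter and build: not given in the sources used here. In the deposited table the larger group mean of every gene was at least 0.5 FPKM.

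The 12404 genes at 1 FPKM or more in 3 or more libraries were fitted as log2(FPKM + 1) with limma 3.58.1 in R 4.3.3 (lmFit, eBayes with trend, group as the term), with Benjamini-Hochberg adjustment over all genes tested. Folds are ratios of mean FPKM. Copies of member transcripts were searched with blastn 2.17.0. Of the list symbols, older names were matched where the table used them. Members, lists, roles and tests were chosen with earlier results of these data known. The genes named are all 35 members and, in each further list, up to 3 called rises and 3 called falls of at least 5 FPKM in the higher group without overlap; others (Max, the nucleotide synthesis genes, markers and strain genes) were picked with values in view. Simulated data with known changes served as a test of the fit. Alternatives were leaving out each library, the replicate number as a block, other filters, a pseudocount of 0.1, quantile normalization, scaling by trimmed means of M values (TMM), robust eBayes, removal of antigen receptor, haemoglobin and mitochondrial genes, and limma's voom on the recovered fragments, for which 32 members had whole fragments.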

Additional observations from a re-analysis of the deposited data

How the results depend on the processing

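Over 15 alternative fits, the members called higher numbered 11 to 14 and those called lower 6 to 10, where the reported fit gave 12 and 8. Of the 20 called members, 14 kept their call in every alternative, none turned its direction, and Polr1c, Ddx21, Gar1, Utp20, Nop14 and Bop1 lost it in at least 1. Of the 15 not called, 8 were called in none. The median of the members was 0.033 to 0.079 when 1 library was left out, 0.042 with genes of at least 5 FPKM, 0.016 after quantile normalization and 0.035 without antigen receptor, haemoglobin and mitochondrial genes, against 0.054 as reported; quantile normalization moved the median over all genes by -0.083. With genes of at least 5 FPKM, 2817 of all genes were called higher, against 4298. Signs turned only in members that were not called: Nolc1 (-0.073 to 0.015 when 1 library was left out, turning without syn-HSCT replicate 2), Wdr43 (-0.018 to 0.069, turning without allo-HSCT replicate 1, at -0.01, or syn-HSCT replicate 2), and, after quantile normalization, Wdr12 (-0.042) and Ubtf (0.011). The cause of these shifts was not tested. Libraries with the same replicate number did not deviate together in every pair (r of 0.063, 0.122 and -0.083 across genes), so the numbers were not taken as pairs; with the replicate block, 11 members were called higher and 7 lower (4164 and 3949 of all genes). Depth limits the genes of few fragments, such as Nle1, Wdr12 and Nop16.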

Other observations

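Levels per length depend on the gene model. The exon union used in the deposited values is 10758 bases for Nop58, 11955 for Wdr12 and 10188 for Ncl, while their longest coding sequences are 1608, 1269 and 2121 bases, so their FPKM are low relative to the number of fragments per coding base; the ratio between groups is not touched by a constant length. Wdr12 also shares stretches of at least 95% identity with 6 other genes over 15.9% of its transcript. The exons of Gnl3, Ncl, Nop56 and Nop58 hold small nucleolar RNA genes of the same strand. Each of these covers at most 2.4% of the exon length, and their part in the values was not tested.

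In the 5 wider ribosome assembly lists, the E-box CACGTG was in the promoter window of 6 of 24 genes called higher, 2 of 40 called lower and 14 of 71 not called. Genes of these lists with the motif had a median log2 difference of 0.03 (n = 22), and those without it -0.07 (n = 113).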
